A study of Mus musculus with 27 samples.

Results

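Cells given parathyroid hormone-related protein (PTHrP) for 6 h were set directly against cells given parathyroid hormone (PTH) for 6 h. The arrays were chosen by their sample titles, so 6 of the 27 arrays of the study enter the difference, 3 with each ligand. KUSA4b10, a mouse marrow stromal line able to differentiate towards osteoblasts, was used throughout. The 9 groups of 3 arrays were PTHrP(1-141) at 20 nM, PTH(1-34) at 10 nM and untreated cells, each at 1, 6 and 24 h, with RNA read on single-colour Affymetrix arrays. All groups are of the same line, so the results describe this line only. Ligand, peptide length and dose differ together, and their parts in a difference cannot be told apart.

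PTH and PTHrP both bind the receptor encoded by Pth1r, which couples mainly to the stimulatory G protein, raises cAMP and activates protein kinase A and transcription factors of the CREB family. In osteoblast lineage cells this pathway switches on early transcription factors, cytokines and RANKL, the main signal for osteoclast formation, and it induces feedback regulators of its own signal. PTH is an endocrine hormone of calcium balance, while PTHrP acts mostly within the tissue that makes it. The title of the study names the control of ephrin B2, the product of Efnb2, by both ligands, and the direct comparison asks where their effects differ.

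Stromal marker genes were abundant, as were some adipocyte and smooth muscle genes. Of 14 marrow stromal marker genes on the array, 10 had a mean above log2 10 in at least 1 of the groups at 6 h, led by Col1a1 at 14.75 with PTHrP, 14.66 with PTH and 14.75 in untreated cells. Thy1, another stromal marker, lay at 5.51, 5.54 and 5.40 in the same order. Of 11 adipocyte markers 5 were above log2 10, among them Lpl at 13.11, 13.19 and 12.94 and Adipoq at 11.90, 11.22 and 11.38, and the smooth muscle gene Acta2 stood at 13.65, 13.50 and 13.76. The highest macrophage and blood cell marker reached 8.09 and the highest endothelial marker 8.0, while Ptprc, the pan-leukocyte gene, lay at 4.20, 4.27 and 4.21. The log2 values of the 6 arrays correlated across genes at 0.9943 to 0.9968 among the PTHrP arrays, at 0.994 to 0.9958 among the PTH arrays and at 0.9891 to 0.9942 between the ligands. Genes are not independent replicates, so these values only describe the arrays. The ratio of the 3' to the 5' probe set of Actb, a measure of RNA integrity, was 0.303 ± 0.046 log2 units with PTHrP and 0.337 ± 0.009 with PTH (SD, n = 3; exact permutation p = 0.4). Array medians differed by less than their spread (6.471 ± 0.040 and 6.445 ± 0.036 log2 units; SD, n = 3, exact permutation p = 0.5).

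At 6 h PTHrP gave lower levels than PTH of a set of cytokine, early response and cholesterol synthesis genes. It gave higher levels of the receptor gene Pth1r and the iron exporter gene Slc40a1. Of 21 osteoblast and osteocyte genes tested, 3 were higher and 1 lower. Levels in untreated cells are given beside those of the ligands, and a difference of either ligand from them shares arrays with the direct comparison. Of 15711 genes tested with limma, 1197 differed at a Benjamini-Hochberg adjusted p under 0.05, which is 7.62% of those tested. PTHrP was higher in 699 (4.45%) and lower in 498 (3.17%). Most differences were small. The median size among the 1197 was 0.38 log2 units, 904 were of at most 0.5 (573 higher, 331 lower), 264 lay between 0.5 and 1 (120 higher, 144 lower), and 29 exceeded 1, that is 2-fold. Of those 29 genes, 23 were lower (0.146% of genes tested) and 6 higher (0.0382%) with PTHrP. The median difference over all genes was 0.04, and for 14548 genes (92.6%) the 95% interval of the difference lay within 1.5-fold either way. The 3 PTHrP and 3 PTH arrays did not overlap in 3935 genes (25%).

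The number of calls and their split depended on single arrays. It was 753 without PTHrP replicate 1, 669 without PTHrP replicate 3, 629 without PTH replicate 2 and 711 without PTH replicate 3. The share of calls that were higher with PTHrP, 58.4%, was 43.6% without PTHrP replicate 1, 71.5% without PTHrP replicate 2 and 48.1% without PTH replicate 1. Limma's treat test, which asks for more than a 1.5-fold difference, passed 7 genes. They were Il6, Prg4, Gem, Il33, Ramp3 and Il11, all lower with PTHrP, and Slc40a1, which was higher. In RNA from whole cultures, fewer cells of a type and less RNA per cell cannot be told apart, which holds for every value below.

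**Figure D1:**
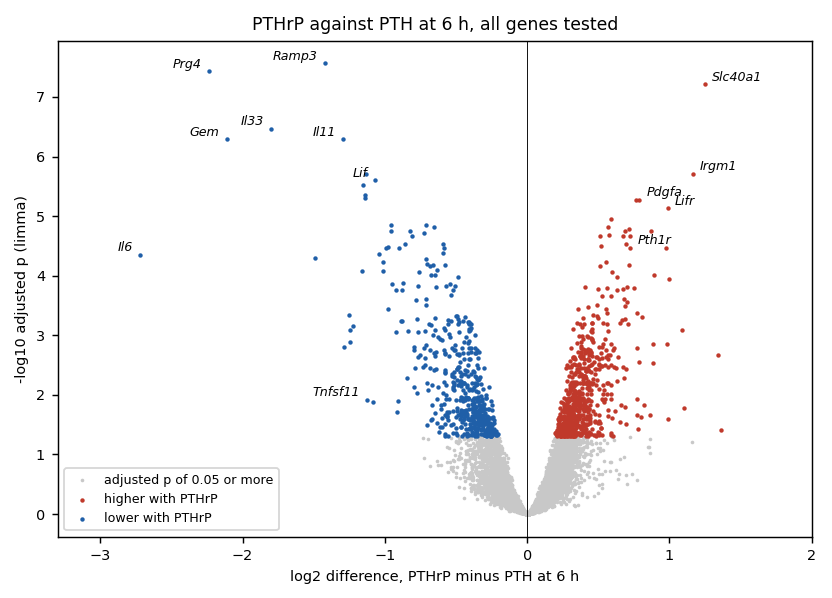
Each point is 1 of 15711 genes, with the log2 difference of PTHrP minus PTH at 6 h on the horizontal axis and the negative log10 of the limma adjusted p on the vertical axis. The 699 genes higher with PTHrP are red, the 498 lower genes are blue and the others grey. Il6, Prg4 and Gem lie farthest to the left, and Slc40a1 stands highest on the right.

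Il6 had the largest difference of all called genes, and 2 other interleukin genes, Il33 and Il11, were among the 12 lowest. The 12 lowest and the 12 highest genes were chosen among called genes whose PTHrP and PTH arrays do not overlap. Il6 (probe set 1450297_at) encodes a cytokine that signals through gp130 and promotes osteoclast formation, and it had log2 intensities of 8.05, 7.72 and 7.62 on the PTHrP arrays, against 10.12, 11.01 and 10.41 on the PTH arrays and 4.54, 4.13 and 4.63 in untreated cells. All PTHrP arrays lay well below all PTH arrays and well above the untreated ones. The difference was -2.72 ± 0.37 log2 units (SE; limma adjusted p = 4.49e-05), a 6.59-fold lower level with PTHrP. Il33 (1416200_at), a nuclear cytokine of the interleukin-1 family released by damaged cells, stood at 7.81, 7.98 and 7.98 with PTHrP, 9.49, 9.69 and 10.0 with PTH, and 5.03, 4.82 and 5.02 in untreated cells. Its difference was -1.80 ± 0.16 (adjusted p = 3.46e-07). Il11 (1449982_at), another gp130 cytokine, had 10.09, 9.69 and 10.06 with PTHrP, 11.13, 11.37 and 11.21 with PTH, and 6.61, 6.56 and 6.64 in untreated cells, a difference of -1.29 ± 0.12 (adjusted p = 5.17e-07). All 3 genes had their lowest arrays in untreated cells and their highest with PTH. Lif, the leukaemia inhibitory factor gene, had 7.96, 7.76 and 7.69 with PTHrP, against 8.74, 9.05 and 8.85 with PTH and 6.83, 6.89 and 6.83 in untreated cells (difference -1.07 ± 0.11, adjusted p = 2.49e-06).

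Of 22 tested genes of gp130 cytokine signalling, 8 were lower and 2 higher with PTHrP, with a median difference of -0.16 beside 0.04 over all genes. The lower members were ligands, receptors and parts of the downstream route. Beside Il6, Il11 and Lif they held the shared receptor gene Il6st at -0.58, the oncostatin M receptor gene Osmr at -0.42, the transcription factor gene Stat3 at -0.41, the feedback inhibitor gene Socs2 at -0.71 and Bcl3, which binds NF-kappa B subunits in the nucleus, at -0.45 log2 units. The higher ones were Lifr and Stat5b, at 0.99 and 0.29. Lifr, the gene of the LIF receptor, had 10.01, 10.19 and 10.15 with PTHrP, 8.97, 9.16 and 9.26 with PTH, and 11.45, 11.57 and 11.52 in untreated cells. PTHrP thus left Lifr between the PTH and the untreated level (difference 0.99 ± 0.11, limma adjusted p = 7.39e-06). Of its 3 probe sets, 1 had a difference of -0.09. Without PTHrP replicate 1 or PTH replicate 2, 1 gene of the list was higher. Il6ra, the gene of the specific IL-6 receptor, and Jak1 did not pass, at 0.08 and -0.02.

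**Figure D2:**
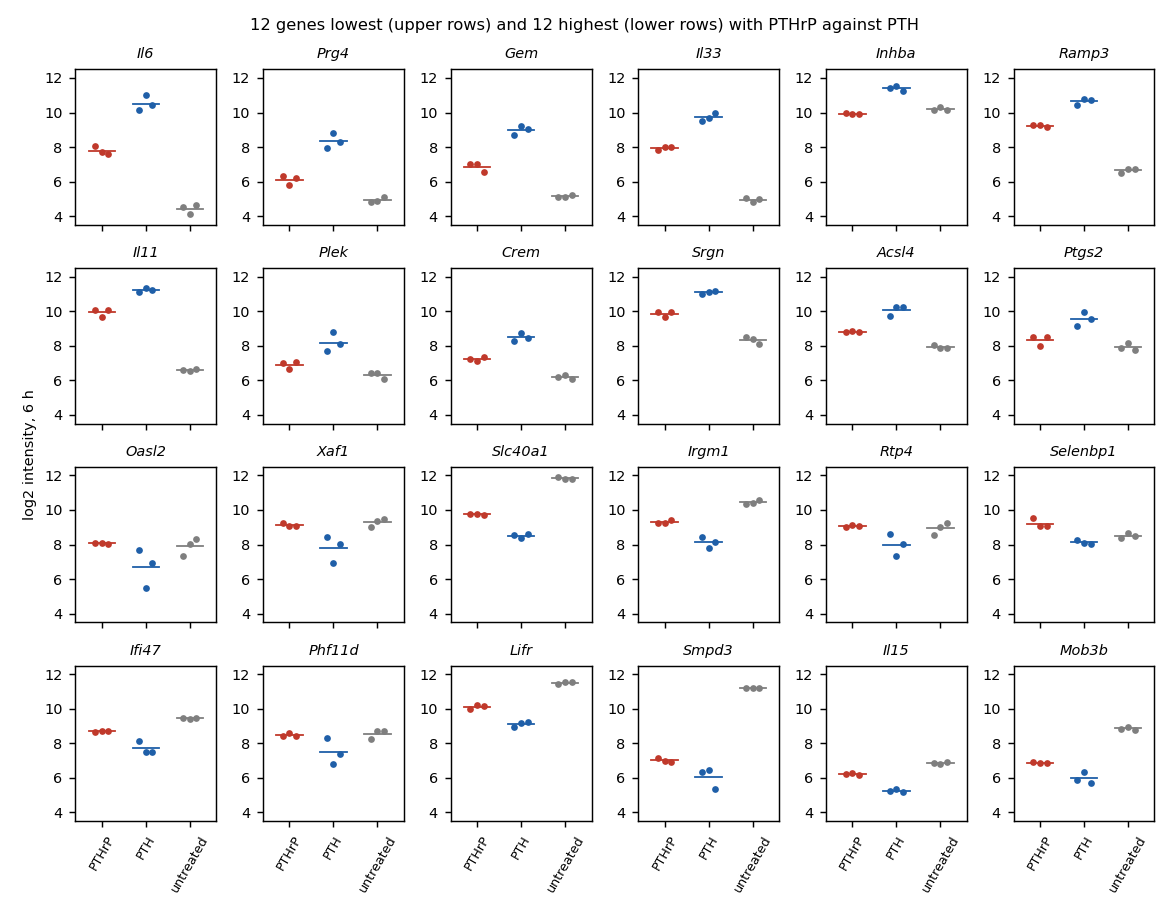
Each panel shows the log2 intensity of 1 gene on the 3 PTHrP (red), 3 PTH (blue) and 3 untreated (grey) arrays at 6 h, with a line at the group mean. The upper 12 genes are those lowest with PTHrP against PTH and the lower 12 those highest. All 24 were chosen among called genes whose PTHrP and PTH arrays do not overlap. The PTH arrays of Oasl2 spread from 5.49 to 7.69, while the PTHrP arrays lie within 8.01 to 8.1.

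The other genes among the 12 with the largest decreases cover lubrication, small GTPases, receptors and prostaglandin synthesis. Prg4 (1449824_at), the gene of the joint lubricant lubricin, had 6.32, 5.78 and 6.19 with PTHrP, 7.94, 8.79 and 8.27 with PTH, and 4.82, 4.86 and 5.12 in untreated cells. Its difference was -2.24 ± 0.18 (limma adjusted p = 3.73e-08). Gem (1426063_a_at), a GTP-binding protein that inhibits calcium channels, had 7.05, 7.03 and 6.55 with PTHrP, against 8.69, 9.24 and 9.04 with PTH and 5.09, 5.12 and 5.23 in untreated cells, a difference of -2.11 ± 0.20 (adjusted p = 5.17e-07). Ramp3 (1420401_a_at), a partner of calcitonin family receptors, had 9.29, 9.28 and 9.15 with PTHrP, 10.43, 10.81 and 10.75 with PTH, and 6.53, 6.75 and 6.71 in untreated cells. It differed by -1.42 ± 0.11 (adjusted p = 2.72e-08).

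Inhba, which encodes a subunit of activins, had 9.96, 9.89 and 9.89 with PTHrP, 11.41, 11.56 and 11.24 with PTH, and 10.14, 10.3 and 10.16 in untreated cells (difference -1.49 ± 0.20, limma adjusted p = 5e-05). The PTH arrays lay above and the PTHrP arrays slightly below the untreated ones: against untreated cells the difference was -0.29 with PTHrP (adjusted p = 0.352), which did not pass, and 1.20 with PTH (adjusted p = 4.56e-05). Ptgs2, the inducible cyclooxygenase gene, had 8.5, 7.97 and 8.5 with PTHrP, 9.17, 9.94 and 9.54 with PTH, and 7.87, 8.19 and 7.76 in untreated cells. It differed by -1.22 ± 0.21 (adjusted p = 0.000687), and against untreated cells it did not pass with PTHrP (0.39, adjusted p = 0.22) and passed with PTH (1.61). Plek, a substrate of protein kinase C best known from blood cells, Crem, a cAMP-responsive transcription factor, Srgn, a proteoglycan of secretory granules, and Acsl4, an enzyme that activates arachidonic acid, were lower, at -1.29, -1.25, -1.25 and -1.25 log2 units. Relative to untreated cells, 9 of the 12 genes with the largest decreases were higher with PTHrP at an adjusted p under 0.05 and 12 were higher with PTH. The background of those comparisons was 8.7% of genes higher with PTHrP and 11.4% higher with PTH. The 12 genes were chosen for a low PTHrP minus PTH difference on these same arrays, so high PTH values are partly built in. The counts therefore do not measure an excess over the background.

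The upstream sequences of those 12 genes are shown because CREB family factors bind DNA at the letters TGACG or, in full, TGACGTCA. RefSeq promoter entries on GRCm38.p6 were present for 9 of the 12 genes, and the 250 bases before the start were searched on both strands, where TGACG reads CGTCA in reverse. TGACGTCA was in 0 of the 9 and TGACG in 4, all of which are printed 5′ to 3′ on the strand of the gene with the matched letters in capitals. The entries are Il6 at chr5:30012864-30013113 on the plus strand, Plek at chr11:17008719-17008968 on the minus strand, Srgn at chr10:62507758-62508007 on the minus strand and Acsl4 at chrX:142390536-142390785 on the minus strand.
Il6: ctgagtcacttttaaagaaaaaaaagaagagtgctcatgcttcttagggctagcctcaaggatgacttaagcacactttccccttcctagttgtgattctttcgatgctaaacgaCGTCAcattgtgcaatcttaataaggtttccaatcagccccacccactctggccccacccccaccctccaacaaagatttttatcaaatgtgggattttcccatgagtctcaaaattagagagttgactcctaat
Plek: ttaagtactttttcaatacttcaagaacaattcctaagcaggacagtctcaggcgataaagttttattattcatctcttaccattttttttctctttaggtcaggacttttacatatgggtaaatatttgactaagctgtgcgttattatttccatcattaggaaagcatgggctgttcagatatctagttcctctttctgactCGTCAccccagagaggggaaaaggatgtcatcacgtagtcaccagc
Srgn: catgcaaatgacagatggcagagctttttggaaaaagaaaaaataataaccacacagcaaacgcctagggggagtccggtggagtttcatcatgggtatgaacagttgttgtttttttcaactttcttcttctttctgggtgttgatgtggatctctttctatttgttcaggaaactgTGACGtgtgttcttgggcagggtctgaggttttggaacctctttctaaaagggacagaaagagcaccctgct
Acsl4: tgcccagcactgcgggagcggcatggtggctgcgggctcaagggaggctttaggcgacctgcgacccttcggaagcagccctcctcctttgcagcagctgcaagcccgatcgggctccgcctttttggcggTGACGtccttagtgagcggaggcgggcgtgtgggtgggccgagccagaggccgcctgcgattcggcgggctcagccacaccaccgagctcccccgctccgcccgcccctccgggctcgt
The match began 135 bases before the start in Il6, 46 in Plek, 72 in Srgn and 119 in Acsl4. TGACG occurred in 17.8% of all 32851 promoter entries and TGACGTCA in 1.55%. Per gene, TGACG was found in 165 of 396 genes lower with PTHrP that had an entry (41.7%), in 132 of 555 higher genes (23.8%) and in 3444 of 12557 genes tested (27.4%). A match describes letters in this window and is not shown to be a binding site.

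The receptor gene itself differed between the ligands. Pth1r (1417092_at) had 11.04, 10.84 and 11.0 with PTHrP, 10.33, 10.1 and 10.29 with PTH, and 11.29, 11.39 and 11.38 in untreated cells. The 3 groups did not overlap, and the difference between the ligands was 0.72 ± 0.09 log2 units (limma adjusted p = 3.41e-05), a 1.65-fold higher level with PTHrP. Of 39 tested genes of the receptor and cAMP pathway, 3 were higher and 2 lower, with a median of 0.04, the same as over all genes. The share called was 12.8%, beside 7.62% over all genes. Adcy7, an adenylyl cyclase gene, was higher by 0.66 (6.7, 6.9 and 6.77 with PTHrP, 6.19, 6.08 and 6.11 with PTH) and Akap12, a scaffold of protein kinase A, by 0.41. Prkce, a protein kinase C gene, was lower, at -0.52, and Crem has been described above. Gnas, the gene of the stimulatory G protein, and Prkaca, a catalytic subunit of protein kinase A, had differences of -0.01 and 0.00 and did not pass. The number of higher genes was 2 without PTHrP replicate 1, PTHrP replicate 3, PTH replicate 1 or PTH replicate 2, and 5 without PTH replicate 3.

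Genes that cAMP induces and that damp or relay its signal were lower with PTHrP in 7 of 29 cases and higher in 0, with a median of -0.15. Rgs2, which shuts off G proteins, had 10.28, 10.14 and 10.33 with PTHrP, 10.98, 11.63 and 11.26 with PTH, and 8.45, 8.46 and 7.96 in untreated cells (difference -1.04 ± 0.14, limma adjusted p = 4.34e-05). Pde4b, a phosphodiesterase that degrades cAMP, had 8.76, 8.4 and 8.33 with PTHrP, 9.36, 9.88 and 9.74 with PTH, and 5.93, 5.82 and 5.75 in untreated cells. It differed by -1.16 ± 0.17 (adjusted p = 8.41e-05), although 1 of its 4 probe sets differed by 0.08. The remaining lower members were Gem, Ramp3, Crem, Ptgs2 and Fos. The other 22 members did not pass, among them Sik1, a salt-inducible kinase gene, at -0.41 and Dusp1, a MAP kinase phosphatase gene, at -0.20. Nr4a2, an orphan nuclear receptor that PTH induces early, had 8.42, 8.22 and 8.28 with PTHrP, 7.82, 9.17 and 8.15 with PTH, and 7.04, 6.98 and 6.69 in untreated cells. Its ligand groups overlapped, with a difference of -0.07 and a 95% interval from -0.56 to 0.42.

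Immediate early genes, which answer a stimulus without new protein synthesis, gave 7 lower and 0 higher of 33, with a median of -0.16. The lower ones were Btg2, an inhibitor of proliferation, at -0.88, Fos at -0.84, Nfil3, a repressor that also feeds the circadian clock, at -0.73, Maff at -0.71, Fosl1 at -0.63, Junb at -0.51 and Ier3 at -0.47 log2 units. Fos, the AP-1 transcription factor gene, had 9.23, 8.99 and 9.17 with PTHrP, against 9.76, 10.18 and 9.96 with PTH and 7.86, 7.94 and 7.74 in untreated cells. Members outside this set included Egr1 at 0.32 and Egr3 at 0.33, neither of which passed. In leave-one-array-out fits the number of lower members was 7 or 8 for both this list and the feedback list.

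A sorting of genes on other arrays bears on these lists. PTH at 1 h raised 226 genes (1.44%) above untreated cells at 1 h and lowered 47 (0.299%; 1.74% in all), measured on arrays that the 6 h difference does not use, although all comparisons share 1 estimate of the spread per gene. Of these 226 genes, 79 (35%) were lower with PTHrP than with PTH at 6 h and 3 (1.33%) were higher, beside 3.17% and 4.45% of all genes. Their median difference was -0.27, against 0.04 over all genes. The number of lower genes was between 55 and 85 when any 1 of the 6 arrays was left out, and that of higher genes between 0 and 3. Among the 47 genes that PTH lowered at 1 h, 10 (21.3%) were higher and 1 lower with PTHrP at 6 h. Sorted by PTH against untreated cells at 24 h, where 5.69% of genes were raised and 5.96% lowered (11.6% in all), 107 of 894 raised genes (12%) were lower and 38 (4.25%) higher with PTHrP at 6 h, with a median of -0.01. Of the 936 genes lowered at 24 h, 154 (16.5%) were higher and 31 (3.31%) lower, with a median of 0.10.

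Factors that stromal cells send to osteoclasts were lower in 4 of 20 cases and higher in 0, with a median of 0.03. The 4 were Il6, Il11, Lif and Tnfsf11. Tnfsf11 (1419083_at), the gene of RANKL, had 9.28, 9.23 and 9.46 with PTHrP, 10.26, 10.57 and 10.52 with PTH, and 5.35, 5.3 and 4.66 in untreated cells. It was lower, at -1.12 ± 0.27 (limma adjusted p = 0.0121), and the call was lost without PTH replicate 2 (-1.06, adjusted p = 0.0555). Tnfrsf11b, the gene of the RANKL decoy osteoprotegerin, had 8.22, 8.12 and 8.59 with PTHrP, 8.06, 8.27 and 8.2 with PTH, and 11.31, 11.36 and 11.16 in untreated cells. Its ligand groups overlapped, and its difference of 0.13 had a 95% interval from -0.16 to 0.42. Csf1, the macrophage colony-stimulating factor gene, also did not pass, with -0.01 and an interval from -0.23 to 0.21. Vdr, the vitamin D receptor gene, had 11.49, 11.49 and 11.47 with PTHrP, 12.18, 12.15 and 12.22 with PTH, and 7.89, 7.84 and 7.94 in untreated cells. The 3 groups did not overlap, but Vdr fell short of the threshold (-0.70 ± 0.22, 95% interval -1.15 to -0.24, limma adjusted p = 0.0553). The SE of that fit takes in the spread of arrays at all 3 times. Vdr passed in 6 of 18 settings, among them the fits to only the 6 arrays compared and to only the 9 arrays of 6 h. It fell short in every leave-one-out fit (limma adjusted p up to 0.141).

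Inflammatory signalling gave 6 lower and 0 higher of 21 genes of the interleukin-1 family and NF-kappa B, with a median of -0.12. Beside Il33 and Bcl3 these were Nfkbiz, an inhibitor-like NF-kappa B protein, at -0.58, Relb, an NF-kappa B subunit, at -0.38, the inhibitor gene Nfkbib at -0.34 and the receptor gene Il1r1 at -0.34 log2 units. The count was 2 without PTH replicate 2, 1 without PTH replicate 3, 2 without PTHrP replicate 2 and 3 without PTHrP replicate 3. Of 22 chemokine genes 1 was lower, Ackr3, a scavenging receptor of CXCL12, at -0.91 ± 0.24 (limma adjusted p = 0.0194), and Ccl2 and Cxcl12 themselves did not pass, at -0.13 and 0.14. The share called among chemokine genes, 4.55%, was below the 7.62% over all genes. The Ackr3 call was lost without PTHrP replicate 1, PTHrP replicate 2, PTH replicate 2 or PTH replicate 3 (adjusted p up to 0.103). Among 12 prostaglandin genes, Ptgs2, the synthase gene Ptges (-0.32) and the receptor gene Ptgfr (-0.31) were lower and Ptgis, the prostacyclin synthase gene, was higher (0.59). The lower calls of that list numbered 1 without PTH replicate 2 and 1 without PTHrP replicate 3, and 5 without PTH replicate 1, and Ptgis was lost without PTHrP replicate 1, PTHrP replicate 3 or PTH replicate 3.

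Efnb2 (1419639_at), the gene named in the title, did not differ beyond the spread between arrays. Ephrin B2 is a membrane ligand through which neighbouring bone cells signal to each other by its receptor EphB4. Efnb2 had 8.66, 8.43 and 8.72 with PTHrP, 8.58, 8.72 and 8.65 with PTH, and 7.39, 7.05 and 6.93 in untreated cells. The ligand groups overlapped and both lay above all untreated arrays. The difference was -0.05 ± 0.16 log2 units (limma adjusted p = 0.921), and its 95% interval ran from -0.38 to 0.29. Against untreated cells Efnb2 was higher by 1.48 with PTHrP (adjusted p = 2.2e-07) and by 1.53 with PTH (adjusted p = 6.5e-08), 2 comparisons that share the untreated arrays. Ephb4 had 8.93, 8.78 and 8.9 with PTHrP, against 8.68, 8.75 and 8.74 with PTH and 8.75, 8.76 and 8.84 in untreated cells, and did not pass (0.15, 95% interval -0.01 to 0.30, adjusted p = 0.273) although its ligand arrays did not overlap. Of 17 ephrin and Eph receptor genes, 4 were higher and 0 lower with PTHrP, with a median of 0.07. They were Ephb6 (0.56 ± 0.09, adjusted p = 0.000361), Efnb1 (0.38), Efna2 (0.37) and Ephb3 (0.27), which encode a kinase-dead receptor, 2 ligands and a further receptor. The count was 1 without PTH replicate 2 and 2 without PTHrP replicate 3, and 1 gene was lower without PTHrP replicate 1.

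**Figure D3:**
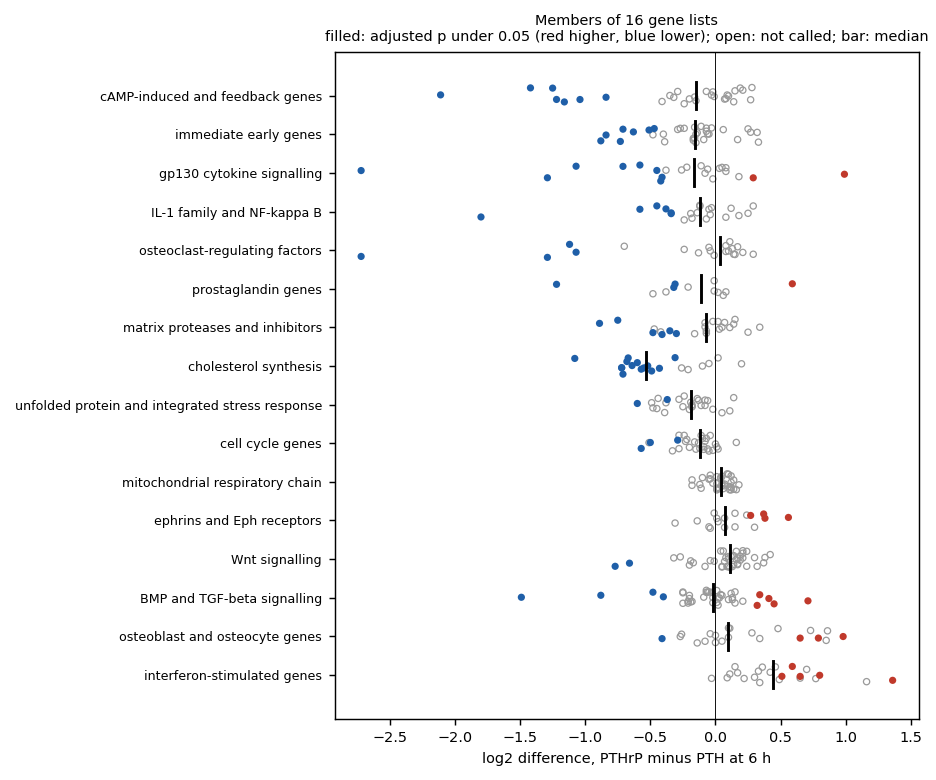
Each row is 1 of 16 gene lists and each point 1 gene, placed by its log2 difference of PTHrP minus PTH at 6 h. Filled points passed at a limma adjusted p under 0.05 (red higher, blue lower with PTHrP), open points did not, and bars mark the list medians. Cholesterol synthesis has its median at -0.53 and interferon-stimulated genes at 0.44, while the 37 respiratory chain genes stay between -0.18 and 0.18.

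Among genes of the osteoblast programme, Sp7, Panx3 and Smpd3 were below untreated cells with both ligands and higher with PTHrP than with PTH. Of 21 tested, 3 were higher and 1 lower with PTHrP than with PTH, with a median of 0.10. Sp7, the gene of the osteoblast transcription factor osterix, had 9.96, 9.86 and 9.87 with PTHrP, 9.3, 9.13 and 9.3 with PTH, and 11.08, 11.12 and 11.09 in untreated cells (difference 0.65 ± 0.11, limma adjusted p = 0.000633). Panx3, a channel gene of bone and cartilage, had 9.1, 8.87 and 9.13 with PTHrP, 8.02, 8.33 and 8.39 with PTH, and 11.15, 11.16 and 11.01 in untreated cells (0.79 ± 0.16, adjusted p = 0.00285). Smpd3, a neutral sphingomyelinase needed for mineralization, had 7.15, 7.0 and 6.93 with PTHrP, 6.33, 6.45 and 5.35 with PTH, and 11.17, 11.22 and 11.2 in untreated cells. It was higher by 0.98 ± 0.18 (adjusted p = 0.0014), although 1 of its 3 probe sets differed by -0.03. In each of these 3 genes the PTHrP arrays lay between the PTH and the untreated ones. Ank, which exports pyrophosphate, an inhibitor of mineralization, was lower, at -0.41 ± 0.07 (10.84, 10.82 and 10.82 with PTHrP, 11.25, 11.2 and 11.28 with PTH). Dmp1, a matrix gene of osteocytes, had 6.0, 5.02 and 6.06 with PTHrP, against 4.96, 5.34 and 4.59 with PTH and 8.14, 8.91 and 7.94 in untreated cells. Its groups overlapped and it did not pass (0.73, interval 0.04 to 1.43, adjusted p = 0.213). Mef2c and Phex, at 0.86 and 0.85, did not pass either, and Col1a1, Alpl and Ibsp gave 0.10, 0.05 and 0.34. The count of higher genes was 5 without PTHrP replicate 2. Sost, the sclerostin gene, lay near log2 5 in all groups (difference -0.04, interval -0.38 to 0.30).

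Of 43 genes of Wnt signalling 2 were lower with PTHrP and 0 higher, the secreted inhibitors Dkk2 and Sfrp4. That share is near the 3.17% lower over all genes, and 33 of the 43 differences were positive, with a median of 0.11. Dkk2 had 8.76, 8.75 and 8.64 with PTHrP, 9.47, 9.44 and 9.53 with PTH, and 9.12, 8.94 and 8.85 in untreated cells (difference -0.77 ± 0.15, limma adjusted p = 0.00233). Sfrp4 had 10.03, 10.25 and 10.12 with PTHrP, 10.53, 10.91 and 10.95 with PTH, and 9.51, 9.21 and 9.3 in untreated cells (-0.66 ± 0.12, adjusted p = 0.000977). Axin2, a target of the pathway, did not pass (0.14), and 1 gene was higher without PTH replicate 2. The 40 BMP and TGF-beta pathway genes held 9 calls: 5 were higher and 4 lower, with a median of -0.02. The lower ones were Inhba, the type I receptor gene Tgfbr1 (-0.88), the inhibitory Smad7 (-0.48) and the BMP antagonist gene Grem1 (-0.40). The higher ones were Inhbb (0.71), which encodes the other activin subunit, Bmp4 (0.45), Tgfb3 (0.41), Tgfb1 (0.34) and Smad3 (0.32). The 2 activin subunit genes stood on opposite sides, Inhbb with 8.12, 7.8 and 8.02 with PTHrP and 7.27, 7.22 and 7.31 with PTH.

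Growth factor genes also went both ways, with 6 higher and 3 lower of 34 genes of the FGF, EGF, PDGF and VEGF families. Nrg1, a neuregulin, had 7.03, 6.61 and 7.09 with PTHrP, 7.81, 8.08 and 7.83 with PTH, and 6.2, 6.46 and 6.23 in untreated cells (difference -1.0 ± 0.13, limma adjusted p = 3.47e-05). Hbegf, which like Nrg1 encodes a ligand of the EGF receptor family, had 8.59, 8.54 and 8.46 with PTHrP, 9.38, 9.36 and 9.47 with PTH, and 7.23, 7.14 and 7.39 in untreated cells (-0.87 ± 0.13, adjusted p = 0.000131). The angiogenic factor gene Vegfa was lower, at -0.53. Pdgfa, a platelet-derived growth factor gene, had 9.2, 9.13 and 9.2 with PTHrP, 8.24, 8.5 and 8.44 with PTH, and 12.14, 12.1 and 12.15 in untreated cells (0.79 ± 0.09, adjusted p = 5.33e-06). Fgfr3 (0.72), Vegfc (0.78), Pdgfc (0.33), Fgfr1 (0.33) and Pdgfrb (0.29) were higher as well. The higher calls of this list numbered 2 without PTHrP replicate 1 and 2 without PTHrP replicate 3. Of 14 genes of the IGF axis, Irs1, an adaptor of the insulin and IGF receptors, was higher (0.49), and the related adaptor gene Irs2 (-0.44), Pappa, a protease that frees IGF from its binding proteins (-0.63), and Igfbp3 (-0.43) were lower. The 3 lower calls were 1 without PTHrP replicate 1, and 2 without PTHrP replicate 2, PTH replicate 1 or PTH replicate 2. Of 15 Notch signalling genes 0 passed in limma, with a median of 0.11, and 1 was lower without PTHrP replicate 1.

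Matrix-degrading factors were lower in 6 of 23 cases and higher in 0, with a median of -0.07. Plaur, the receptor gene of urokinase, had 9.97, 9.65 and 9.87 with PTHrP, 10.54, 10.84 and 10.78 with PTH, and 7.99, 8.36 and 7.96 in untreated cells (difference -0.89 ± 0.15, limma adjusted p = 0.000579). Adamts1 (-0.75) and Adamts4 (-0.41), both proteases of proteoglycans, the collagenase gene Mmp13 (-0.35), the cysteine protease gene Ctsk (-0.30) and the inhibitor gene Timp1 (-0.48) were the others. The count was 3 without PTHrP replicate 1, PTHrP replicate 2, PTH replicate 2 or PTH replicate 3. Of 37 genes of the extracellular matrix, Prg4 and Vcan, the gene of the proteoglycan versican (-0.61), were lower and none was higher, while Col1a2, Fn1 and Sparc gave 0.00, 0.01 and 0.10. The share called in that list, 5.41%, was below the 7.62% over all genes. Versican has 5 probe sets, of which 1 differed by 0.24. Without PTHrP replicate 1, PTHrP replicate 3, PTH replicate 2 or PTH replicate 3, 1 gene of that list passed.

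Cell division genes were lower with PTHrP in 3 of 29 cases and higher in 0, and 25 of the 29 differences were negative (median -0.12). The share called in that list, 10.3%, was near the 7.62% over all genes. Rrm2, a subunit of the enzyme that makes deoxynucleotides, had 10.0, 10.11 and 10.07 with PTHrP, 10.51, 10.45 and 10.72 with PTH, and 10.23, 10.1 and 10.29 in untreated cells (difference -0.50 ± 0.08, limma adjusted p = 0.000483). The others were the replication licensing gene Cdc6 (-0.57) and Cdk1 (-0.29), the kinase of mitosis. Among 14 genes of D cyclins and inhibitors, Cdkn1a, the gene of the inhibitor p21 (-0.35), Cdk6 (-0.36) and the stress genes Gadd45g (-0.52) and Gadd45b (-0.35) were lower and Ccnd1, the gene of cyclin D1, was higher (0.35), a call lost without PTHrP replicate 3 or PTH replicate 2. Of 18 clock genes Nfil3 alone passed, and Per1 gave -0.29, with 2 lower genes without PTHrP replicate 1. The share called among clock genes, 5.56%, was below the 7.62% over all genes.

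The mevalonate and cholesterol pathway gave the highest share of calls among the lists: 14 of 20 genes (70%) were lower with PTHrP and 0 higher, with a median of -0.53 beside 0.04 over all genes. Sqle, the squalene epoxidase gene, had 11.06, 11.21 and 10.95 with PTHrP, 11.59, 11.87 and 11.9 with PTH, and 10.27, 10.13 and 10.38 in untreated cells (difference -0.71 ± 0.11, limma adjusted p = 0.000246). Cyp51, which demethylates lanosterol, had 10.16, 10.16 and 10.1 with PTHrP, 10.62, 11.05 and 10.89 with PTH, and 9.84, 9.87 and 9.99 in untreated cells (-0.72 ± 0.13, adjusted p = 0.000834). Both genes lay between the untreated and the PTH level on every PTHrP array. Idi1, which isomerizes the isoprenoid building block, had 8.86, 9.48 and 8.9 with PTHrP, 9.93, 10.2 and 10.37 with PTH, and 9.2, 8.68 and 9.05 in untreated cells (-1.08 ± 0.27, adjusted p = 0.0134, lost in 4 of the leave-one-out fits at up to 0.0683). Hsd17b7 (-0.72), Msmo1 (-0.68), the cholesterol transporter gene Stard4 (-0.67), Fdps (-0.64), Fdft1 (-0.60), Hmgcs1 (-0.57), Pmvk (-0.55), Sc5d (-0.52), the feedback regulator gene Insig1 (-0.49), Mvd (-0.43) and Lss (-0.31) also passed. Dhcr7, Ebp, Mvk, Nsdhl, Srebf2 and Tm7sf2 did not, at -0.26 to 0.20. The mean log2 level of the list was 9.30, 9.48 and 9.23 on the PTHrP arrays, 9.62, 9.84 and 9.91 on the PTH arrays, and 9.20, 9.01 and 9.21 on the untreated arrays. The ligand groups did not overlap. The count of lower genes was 8 without PTHrP replicate 3, PTH replicate 2 or PTH replicate 3, and 10 without PTHrP replicate 1.

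Other stress and metabolic lists had fewer calls. In the stress response and heat shock lists 7.69% and 7.14% of genes were called, near the 7.62% over all genes. Of 26 genes of the unfolded protein and integrated stress response, 23 differences were negative with a median of -0.19, but 2 passed, Ppp1r15a, a phosphatase subunit that restores translation (-0.60), and Sesn2, a stress-induced inhibitor of growth signalling (-0.37). Neither passed without PTHrP replicate 2 or without PTH replicate 2. Of 25 genes of glycolysis and hypoxia, Hk2, a hexokinase gene (-0.61 ± 0.11, limma adjusted p = 0.00116), Pfkfb4 (-0.54), Vegfa and Hif1a (-0.39) were lower. The lactate exporter gene Slc16a3 (0.59) was higher. Leaving out any PTHrP array or PTH replicate 3 left 2 lower calls. Of 18 amino acid genes the transporter genes Slc7a5 (-0.60), Slc7a1 (-0.50) and Slc3a2 (-0.35) were lower and Phgdh, of serine synthesis, was higher (0.43), calls that numbered 0 in all without PTHrP replicate 2, PTHrP replicate 3 or PTH replicate 3. Without PTH replicate 2 none of the lower calls was left, and without PTH replicate 1 the Phgdh call was lost. Of 14 heat shock genes Hspa4 was lower (-0.46), with 1 of its 4 probe sets at 0.10, and it was lost without PTHrP replicate 2, PTHrP replicate 3, PTH replicate 2 or PTH replicate 3. Of 37 respiratory chain genes 0 passed in limma, and the 95% interval of all 37 lay within 1.5-fold.

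Slc40a1 (1417061_at), the gene of the iron exporter ferroportin, had 9.75, 9.78 and 9.73 with PTHrP, 8.56, 8.36 and 8.59 with PTH, and 11.91, 11.77 and 11.82 in untreated cells, a difference of 1.25 ± 0.10 (limma adjusted p = 6.14e-08). PTHrP arrays lay between the others, and their separation from the PTH arrays was a condition for a place among the 12 largest increases. Il15, a cytokine gene that supports natural killer and T cells, had 6.23, 6.3 and 6.16 with PTHrP, 5.22, 5.35 and 5.19 with PTH, and 6.88, 6.78 and 6.91 in untreated cells (0.98 ± 0.13, adjusted p = 3.41e-05). Mob3b, of a family of kinase activators, had 6.93, 6.84 and 6.85 with PTHrP, 5.9, 6.36 and 5.68 with PTH, and 8.82, 8.97 and 8.79 in untreated cells (0.89 ± 0.13, adjusted p = 9.6e-05). Selenbp1, a selenium-binding protein gene, had 9.51, 9.05 and 9.09 with PTHrP, 8.26, 8.07 and 8.05 with PTH, and 8.36, 8.66 and 8.49 in untreated cells (1.09 ± 0.19, adjusted p = 0.000822), and was above all untreated arrays with PTHrP. Of the 12 genes with the largest increases, 7 were below and 1, Selenbp1, above untreated cells with PTHrP at an adjusted p under 0.05, and 11 were below with PTH. The background there was 12.2% of genes lower with PTHrP and 17.9% lower with PTH (20.9% and 29.3% in both directions). These 12 genes were likewise chosen on the same arrays, here for a high difference, so low PTH values are partly built in. Their counts do not measure an excess over the background either.

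The list of interferon-stimulated genes had calls that depended on single arrays. Of 22 interferon-stimulated genes, 21 differences were positive with a median of 0.44, and 5 were higher with PTHrP: Oasl2 (1.36), Ifih1 (0.80), Oas1a (0.65), Bst2 (0.59) and Ddx58 (0.51). Oasl2, of the oligoadenylate synthetase family, had 8.1, 8.09 and 8.01 with PTHrP, 7.69, 5.49 and 6.92 with PTH, and 7.34, 8.03 and 8.3 in untreated cells (limma adjusted p = 0.0394, or 0.291 without PTH replicate 2). The mean log2 level of the 22 genes was 7.97, 7.98 and 7.94 on the PTHrP arrays, 7.92, 7.05 and 7.47 on the PTH arrays and 7.66, 7.97 and 8.13 on the untreated arrays. PTH replicate 2 was the lowest of the 9 arrays and PTH replicate 1 lay close to the PTHrP arrays. The number of calls was 0 without PTH replicate 2, PTH replicate 3, PTHrP replicate 2 or PTHrP replicate 3, 1 without PTHrP replicate 1, and 7 without PTH replicate 1. At 1 h the median difference of this list had the other sign, at -0.47, with list means of 7.63, 8.35 and 7.77 on the PTHrP arrays against 8.17, 8.70 and 8.45 on the PTH arrays, and at 24 h it was 0.12.

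Xaf1 (1.34), Irgm1 (1.16), Rtp4 (1.10), Ifi47 (1.0) and Phf11d (0.99), which were among the 12 largest increases, are not on that list. They are known as interferon-induced in the mouse, a label given here after their values were seen. Irgm1, a GTPase of defence against intracellular microbes, had 9.24, 9.25 and 9.41 with PTHrP, 8.42, 7.82 and 8.17 with PTH, and 10.34, 10.4 and 10.59 in untreated cells (1.16 ± 0.12, limma adjusted p = 1.94e-06). Irgm1 and Ifi47, a related GTPase gene (adjusted p = 0.000113), passed in every leave-one-out fit. Rtp4 was lost without PTH replicate 2 (0.77, adjusted p = 0.136) and without PTHrP replicate 3 (adjusted p = 0.0515), and Phf11d was lost without any 1 array other than PTH replicate 1 (adjusted p up to 0.195). Xaf1 also passed in every leave-one-out fit (limma adjusted p up to 0.0192), but it has a second probe set, which gave -0.01. The second probe set of Rtp4 gave 0.01, and the Rtp4 call was lost with the mean of all probe sets of the gene. The part that the spread of the PTH arrays has in the interferon result was not tested.

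**Figure D4:**
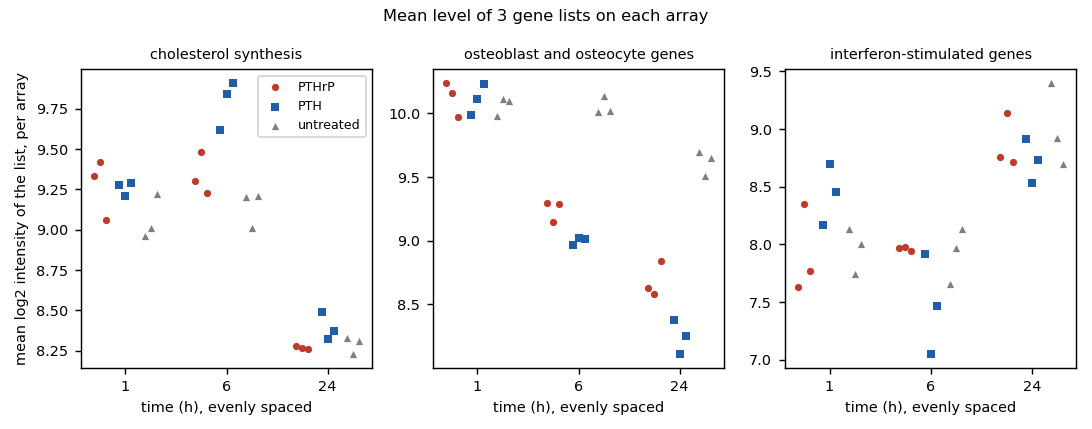
Points give the mean log2 intensity of 3 gene lists on each PTHrP (red circles), PTH (blue squares) and untreated (grey triangles) array at 1, 6 and 24 h. At 6 h cholesterol synthesis genes lie at 9.23 to 9.48 with PTHrP and 9.62 to 9.91 with PTH, and interferon-stimulated genes spread from 7.05 to 7.92 over the PTH arrays and from 7.94 to 7.98 over the PTHrP arrays.

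Markers of other cell types were followed because stromal cultures can hold adipocyte, cartilage and muscle-like cells. The summed linear intensity of the chondrocyte markers tested, 11 genes, was 2408 to 2785 on the PTHrP arrays and 2033 to 2220 on the PTH arrays. That of muscle markers was 15279 to 16869 with PTHrP and 14046 to 14818 with PTH, and that of marrow stromal markers was 111512 to 115619 with PTHrP and 108885 to 111225 with PTH. None of these ranges overlapped between the ligands (exact permutation p = 0.1 for each, the smallest that 3 arrays against 3 can give), and their part in the other results was not tested. The untreated arrays gave 2379 to 2532 for chondrocyte, 16006 to 17924 for muscle and 113961 to 116469 for marrow stromal markers. In each list these sums lay above all PTH arrays and overlapped the PTHrP range. Col11a2, a cartilage collagen gene, was the chondrocyte marker that passed (0.77 ± 0.15, limma adjusted p = 0.00165), while the defining genes Col2a1, Acan and Sox9 gave 0.10, 0.02 and 0.02. Col11a2 also had the highest level of that list (mean log2 10.11 with PTHrP and 9.34 with PTH), and the difference between the chondrocyte sums rested mostly on it. The muscle gene Cnn1 was lower (-0.46), and Myod1 and Des gave -0.01 and 0.01. In both the chondrocyte and the muscle list 9.09% of the genes tested were called, near the 7.62% over all genes. The muscle sum was made up mostly of Acta2 (mean log2 13.65 with PTHrP and 13.50 with PTH) and Tagln (11.04 with PTHrP and 10.80 with PTH), neither of which passed. Of 10 adipocyte genes the transcription factor genes Cebpd (-0.67) and Cebpb (-0.45) were lower and Cebpa (0.43) was higher, with Adipoq at 0.68 and Fabp4 at 0.50 not passing. The Cebp calls and that of Cnn1 each depended on single arrays: without PTHrP replicate 2 or PTH replicate 2 no adipocyte gene was lower, without PTHrP replicate 1, PTHrP replicate 3 or PTH replicate 3 none was higher, and without PTHrP replicate 1, PTHrP replicate 3 or PTH replicate 3 no muscle gene was lower. Summed adipocyte, macrophage and endothelial markers overlapped (exact permutation p = 1, 0.6 and 0.3).

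The same comparison was made on the arrays of the other times. At 1 h limma called 0 genes between PTHrP and PTH, with 632 (4.02%) at an unadjusted p under 0.05. At 24 h it called 182 (1.16%), 132 higher (0.84%) and 50 lower (0.318%) with PTHrP, a count that was 77 without PTHrP 24 h replicate 3, 101 without PTH 24 h replicate 2 and 96 without PTH 24 h replicate 3. Arrays of different times are separate samples. Of the 699 genes higher with PTHrP at 6 h, 29 were also higher at 24 h, which is 4.15% of the 6 h and 22% of the 24 h genes, and 2 were lower. Of the 498 lower genes 17 were lower at 24 h (3.41% and 34%), and 2 were higher.

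Pth1r was among the genes with a difference at both later times, at 0.72 ± 0.09 after 6 h and 0.76 ± 0.09 after 24 h (limma adjusted p = 3.69e-05). Panx3 (1.67 at 24 h), Sp7 (0.82), Ptgis (1.17), Ccnd1 (0.58), Pdgfa (0.49) and Tmem119, a membrane protein gene of osteoblasts (0.64), were higher at both times. Prg4 (-1.33), Hbegf (-1.08), Ecm1, an extracellular matrix protein gene (-0.66), Hk2 (-0.53) and Socs2 (-0.44) were lower at both. The 4 genes with opposite signs were Sod2, of mitochondrial superoxide dismutase (-0.63 at 6 h and 0.43 at 24 h), C1s1, a complement protease gene (-0.26 and 0.61), Chek2, a checkpoint kinase gene (0.34 and -0.38), and Abcc4, an exporter of cyclic nucleotides and prostaglandins (0.56 and -0.43).

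The change of the difference with time was tested directly. Between 1 and 6 h it passed for 151 genes (0.961%), 60 moving up (0.382%) and 91 down (0.579%). Prg4 (0.17 at 1 h), Gem (-0.31), Il33 (-0.13), Ramp3 (0.13) and Prr5l, a regulator of the mTOR complex (0.15), had the largest downward changes among genes that passed, of -2.41, -1.80, -1.67, -1.55 and -1.29. The largest upward changes among genes that passed were those of Rtp4, Phf11d, Xaf1, Irgm2 and Irgm1, at 1.85, 1.64, 1.61, 1.41 and 1.38. The changes of Rtp4, Phf11d, Xaf1 and Irgm2 were each lost without several single arrays, PTH 6 h replicate 2 among them, and that of Irgm1 was not lost in any alternative run. The count was 83 without PTH 6 h replicate 2, 76 without PTH 6 h replicate 3, 243 without PTH 6 h replicate 1, 92 without PTH 1 h replicate 3 and 330 without PTHrP 1 h replicate 3. Between 24 and 6 h the difference changed for 237 genes (1.51%), 95 up (0.605%) and 142 down (0.904%). Il6, at 0.79 ± 0.37 after 24 h (adjusted p = 0.485), changed by -3.51 ± 0.52 (limma adjusted p = 0.000729). At 1 h its difference was -0.98 ± 0.37, and its change from 1 to 6 h, -1.74 ± 0.52, did not pass (limma adjusted p = 0.114). Gem, Cxcl5, Il4ra and Crem changed by -1.83, -1.49, -1.46 and -1.46 (Cxcl5 was lost without any 24 h array and without each 6 h array other than replicate 1 of either ligand), and Irgm1, Slc40a1, Abcc4, Zfp185 and Slc12a1 by 1.12, 1.02, 0.99, 0.98 and 0.89. That count was 146 without PTHrP 6 h replicate 3, 144 without PTH 6 h replicate 2 and 138 without PTHrP 24 h replicate 1.

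**Figure D5:**
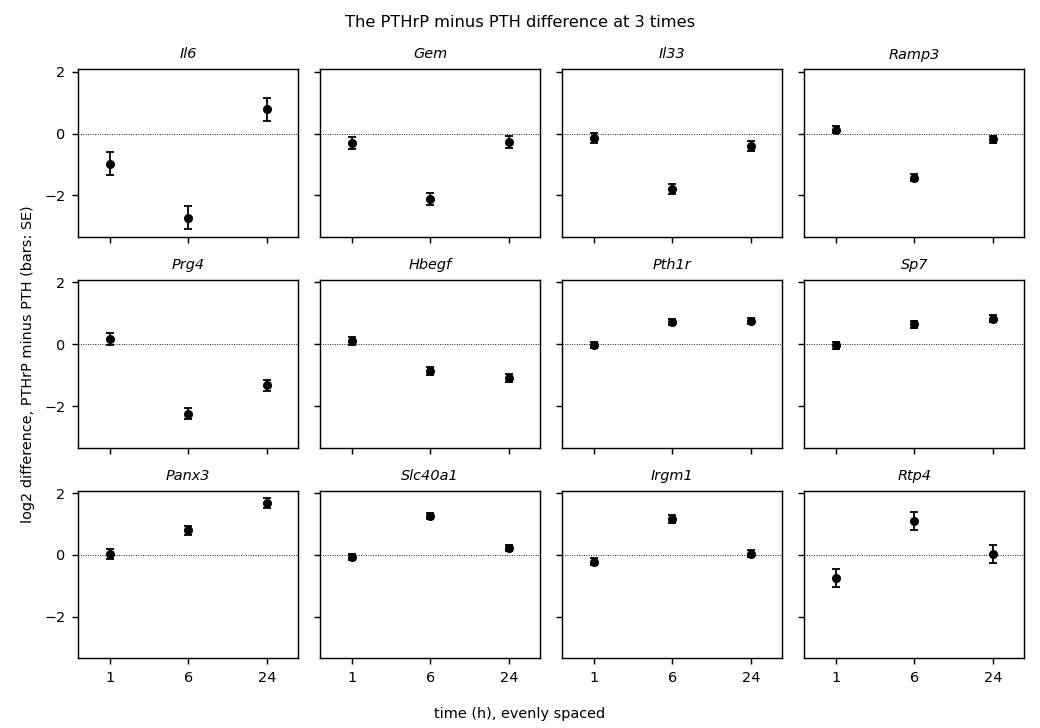
Each panel gives the log2 difference of PTHrP minus PTH for 1 gene at 1, 6 and 24 h, with bars for the standard error of the limma fit. Il6, Gem, Il33 and Ramp3 are lowest at 6 h, Prg4 and Hbegf are below 0 at both later times, and Pth1r, Sp7 and Panx3 are above 0 at both. The change of Il6 from 1 to 6 h did not pass.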

How the data were processed

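The authors deposited 1 intensity value per probe set and array. The submitters' processing notes name RMA, and the series' design text says that the arrays were normalized anew for this deposit, after the work was published. RMA understates fold changes of dim genes. Its 45101 probe sets have linear values of 6.79 to 36257 (array medians 83.15 to 91.08), with 0 unused columns of values. Neither slide nor scan date was known here.

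Values were put on a log2 scale from the deposited intensities. Of the probe sets, 64 controls were left out. A platform table named 34945 probe sets with 1 gene, 932 with several and did not list 9211. The probe set with the highest mean stood for each of 18193 genes (9010 had several), and the 15711 genes that reached log2 5 on 3 or more arrays were tested. Limma 3.58.1 in R 4.3.3 fitted 9 group means to 27 arrays (18 residual and 5.54 prior degrees of freedom), with two-sided tests, Benjamini-Hochberg adjustment over all genes and a threshold of 0.05. Values after ± are standard errors unless SD is written. The number of arrays limits precision (median SE 0.102). Single values per array were compared by two-sided exact permutation tests. The fit was tested on simulated data. Nothing in the labels ties each replicate to its own culture, and p-values then cover only the variation among these samples, which may be technical.

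Named genes were the 12 largest differences each way among called genes whose arrays do not overlap, up to 4 called members of each of 33 lists, 14 genes named whatever their result, and the 5 largest changes with time each way. Other list members were named after their values were seen. The comparison and the lists were chosen with earlier results of these data known. Alternatives varied the filter, normalization, array weights, probe set, arrays fitted, scale and replicates. Promoters came from RefSeq, and no genome was used.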

Additional observations from a re-analysis of the deposited data

Results flagged for a closer look

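The difference between PTHrP and PTH was not the same at all times, by limma tests of the change itself at a Benjamini-Hochberg adjusted p under 0.05. From 1 to 6 h it changed for 151 genes and from 24 to 6 h for 237. Among genes that passed, the largest changes between 1 and 6 h were those of Rtp4 (1.85 log2 units), Phf11d (1.64), Xaf1 (1.61), Irgm2 (1.41) and Irgm1 (1.38), all upward, and Prg4 (-2.41), Gem (-1.80), Il33 (-1.67), Ramp3 (-1.55) and Prr5l (-1.29), all downward. Rtp4, Phf11d, Xaf1 and Irgm2 had adjusted p-values between 0.0198 and 0.0348, and each was lost without several single arrays, PTH 6 h replicate 2 among them, while Irgm1 had 9.9e-05 and Prg4 8.67e-06. Between 24 and 6 h the largest changes among genes that passed were those of Irgm1 (1.12), Slc40a1 (1.02), Abcc4 (0.99), Zfp185 (0.98) and Slc12a1 (0.89), and of Il6 (-3.51), Gem (-1.83), Cxcl5 (-1.49), Il4ra (-1.46) and Crem (-1.46). The Cxcl5 change was lost in 10 of the 12 fits without 1 array. Slc12a1, a kidney salt transporter gene, lay between 3.93 and 4.47 at 6 h, near the bottom of the scale. No cause of these changes was tested.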

How the results depend on the processing

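At 6 h, 1197 genes differed. The count was 4540 with array weights, which gave PTHrP replicate 3 a weight of 7.21, 769 with only the 6 arrays compared (366 higher, 403 lower) and 7 against a 1.5-fold change. Leaving out each array in turn gave 629 to 1035. Of 182 genes at 24 h, cyclic loess gave 283, array weights 1273 and leaving out arrays 77 to 193. At 1 h every alternative gave 0 except 1 without PTHrP 1 h replicate 2. For the change from 1 to 6 h, 151 genes, the counts were 245 with the stricter filter, 292 after cyclic loess, 301 after quantile normalization, 1329 with array weights and 76 to 330 without single arrays. For the change from 24 to 6 h, 237 genes, they were 415, 383 and 2374 with cyclic loess, quantile normalization and array weights, and 138 to 256 without single arrays. Leaving out arrays of 1 and 24 h, and the sorting by PTH at 24 h, were chosen after seeing the data. The median difference of all genes at 6 h was 0.004 to 0.040 over the alternatives. Labels number the replicates alike. Deviations of same-numbered PTHrP and PTH arrays correlated at -0.372, -0.244 and 0.12. These values cannot show whether same-numbered arrays shared a culture or batch, which the labels do not say. A fit with the replicate number as a block gave 1040 calls (602 higher, 438 lower). Of 133 results for single genes, 26 kept their side of the threshold in every alternative. The alternatives include the test against a 1.5-fold change, which asks for a larger difference. Pth1r, Sp7, Fos and Rgs2, for example, passed in 17 of 18 settings at 6 h and were lost only there. Others were lost more widely, such as Slc3a2, which passed in 6 of 18. Over 2403 pairs of gene and alternative 2064 stayed, 329 fell short, 10 newly passed and 0 reversed. Among 113 named genes, 57 had several probe sets and 10 had 1 or more of opposite sign, 0 of them passing.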
